A study of Mus musculus with 86 samples.

Results

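The steady-state abundance of massively parallel reporter assay (MPRA) transcripts was compared between the cell bodies (soma) of TDP-43 knockout and wild-type CAD cells, which are a mouse neuronal line that grows neurites when serum is removed. The comparison rests on 8 of the 86 samples of the series, chosen by their labels, with 4 knockout (plus doxycycline) and 4 wild-type (minus doxycycline) soma libraries. Both groups have the same genotype: the endogenous TDP-43 alleles were inactivated by CRISPR in a single clone, and TDP-43 was supplied by 1 HA-tagged, doxycycline-off transgene, so that "wild type" here means cells rescued by the transgene and "knockout" means the same cells given doxycycline, at 2 µg/mL for 48 h per the labels. The labels and the methods differ on the dose, so it is not settled here. Since only the knockout libraries come from cells with the drug, an effect of doxycycline itself and the loss of TDP-43 cannot be told apart in these 8 libraries. A plasmid pool was transfected, doxycycline was added a day later, and the cells were then grown on porous membranes that let neurites through, so that soma and neurite RNA could be collected separately. Each plasmid carries 1 insert of 260 bases behind a GFP reading frame, and the inserts tile the 3′ UTRs of 16 mouse genes in steps of 6 bases. The paper picked most of its UTRs from RNAs whose neurite localization rose or fell in the knockout, and a few from RNAs not reliably affected. Shares of tiles that rose are thus shares within a chosen set.

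The pool as seen in the deposited files held 11955 oligos. Of these, 7389 carry unmutated mouse sequence, and they fall into 4566 tiles with at least 1 TDP-43 motif and 2823 tiles without. Each of the 4566 motif tiles has a mutated companion in which every UGUGU motif was exchanged for ACACA, every GUGUG motif for CACAC and every GUAUG motif for CAUAC, while the rest of the insert was kept. The oligo names give the mutated positions, which define the classes and the length of each run of motif bases without reference to any count.

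TDP-43 is an RNA-binding protein of the nucleus and cytoplasm that recognizes GU-rich RNA through a pair of RNA recognition motifs, and it is best known from neurons, where it is depleted from the nucleus and aggregates in amyotrophic lateral sclerosis and frontotemporal dementia. Through GU-rich sites it affects splicing, 3′ end choice, stability and transport of its target RNAs, and it lowers its own mRNA through its 3′ UTR. In an MPRA all inserts share a promoter, a reading frame and a polyadenylation signal, so that a difference between oligos in 1 library follows the insert, its amount in the plasmid pool and how well it is amplified and aligned.

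The leading inserts of the stretches of UTR that rose are shown first, because GU-rich sequence is the plainest thing that most of them share. For each, the 30 bases richest in TG are printed 5′ to 3′ on the transcribed strand in DNA letters (T for U), taken from GENCODE vM21 transcripts of the mm10 assembly. In the first 7, capitals mark bases inside a run of TDP-43 motifs.
Fam160b2 tile 234, minus strand of chr14:70583682-70583711: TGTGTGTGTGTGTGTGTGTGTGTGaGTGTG
Lrrc47 tile 19, plus strand of chr4:154019976-154020005: TGTGctgtaggtgtcTGTGTGgGTGTGctg
Cacna1b tile 316, minus strand of chr2:24605009-24605038: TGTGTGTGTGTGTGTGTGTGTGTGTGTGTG
Spock2 tile 41, plus strand of chr10:60131710-60131739: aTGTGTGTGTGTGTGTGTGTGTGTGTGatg
Diras1 tile 272, minus strand of chr10:81020258-81020287: GTGTGTGTGTGTGaagggggagaGTGTGTG
Diras1 tile 204, minus strand of chr10:81020631-81020660: tatgtgccTGTGTGTGTGgatggGTGTGTG
Tub tile 425, plus strand of chr7:109032835-109032864: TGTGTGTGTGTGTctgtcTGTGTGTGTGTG

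The next 3 rose as well but hold few or no listed motifs, and here capitals mark TGGATG and TGAATG.
Ksr2 tile 1454, plus strand of chr5:117774293-117774322: gtatgTGAATGAATGGATGaTGGATGAATG
Kank2 tile 264, minus strand of chr9:21767386-21767415: TGGATGggTGGATGGATGGATGgctgattg
Wasf3 tile 432, plus strand of chr5:146472865-146472894: tgagTGGATGggtggattggtgggtgagtg

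The mutated companions of an Lrrc47 and a Ksr2 tile are shown over the same windows, with the exchange that the study describes applied at the positions in the oligo names and the changed bases in capitals. In the Lrrc47 window 15 bases change and in the Ksr2 window 5.
Lrrc47 tile 19, mutated: ACACctgtaggtgtcACACACgCACACctg
Ksr2 tile 1454, mutated: CATACtgaatgaatggatgatggatgaatg

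Soma libraries held 8356871 to 12208997 unique molecular identifiers (UMIs) from 10531234 to 16719583 reads, with 11939 to 11945 oligos detected and a median of 546 to 764 UMIs per oligo. Levels are given as CPM, which are UMI counts scaled to the normalized size of their library, so they are relative to the rest of the pool and a change shared by all reporters would not be seen. With 8-base UMIs only 65536 tags are possible per oligo, and the most abundant oligo filled 12.1 to 17.7% of them. Knockout replicate 3 stood apart from the other knockout libraries (chi-square per degree of freedom 4.04 to 5.35, against 1.58 to 3.11 for all other replicate pairs). The amplicons hold no Tardbp, the gene of TDP-43, but in the separate RNA-seq of CAD soma its level was 115, 134 and 159 TPM (a length-normalized share of all transcripts, as given by the authors) in knockout and 669, 1002 and 981 in wild type.

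In knockout soma a minority of the reporters were higher and very few were lower. Of 11916 oligos tested, 899 were higher in knockout soma (7.54% of those tested) and 11 were lower (0.0923%) at an adjusted p of at most 0.01 (edgeR quasi-likelihood test, Benjamini-Hochberg over all oligos tested). The rises were large: 537 of the 899 exceeded 2-fold, while the 11 falls lay between −0.30 and −0.15 on the log2 scale. At an unadjusted p under 0.05 there were 1476 rises and 777 falls. The median log2 change over all oligos tested was −0.01. The near absence of falls depends on the scaling: with upper-quartile scaling the median moved by −0.063, and 843 oligos were called higher and 288 lower, so that 74.5% of calls were rises in place of 98.8%. Without knockout replicate 3 the counts were 924 higher and 15 lower.

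Motif tiles made up most of the rises. Among 4554 motif tiles tested, 675 rose (14.8%), against 129 of 4550 mutated companions (2.84%) and 95 of 2812 tiles without a motif (3.38%), which are to be read against the 7.54% of all oligos. The called motif tiles had a median change of 1.29 (log2), and their median level was 65.8 CPM in wild type and 151 CPM in knockout; motif tiles that were not called stood at 69.2 and 69.1 CPM. The called mutated oligos had a median change of 0.98 and the called no-motif tiles 1.29. Motif tiles as a class took 41.1% ± 0.285 (SD, n = 4) of the UMIs of wild-type libraries and 45.5% ± 0.237 of those of knockout libraries, while the mutated share went from 36.8% ± 0.119 to 33.9% ± 0.370 and the no-motif share from 22.1% ± 0.219 to 20.6% ± 0.135. In each class the ranges of both groups did not overlap.

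At the median motif tile the difference was small. The class score, which is the median over oligos of the centred log2 level relative to no-motif tiles in the same library, differed by 0.018 between knockout and wild type for motif tiles (exact permutation test, two-sided, p = 0.0857, adjusted over the 2 classes 0.171) and by −0.020 for mutated oligos (p = 0.2, adjusted 0.2). With 4 against 4 libraries the smallest p that this test can give is 0.0286. Labels do not say whether the libraries came from separate cultures, so all p-values measure the spread between these samples.

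The rises were clustered along the UTRs. Joining called neighbours over gaps of up to 3 tiles gave 16 regions of at least 5 called tiles, all of them higher in knockout, in 11 of the 16 UTRs. They held 872 of the 899 called oligos, namely 662 motif, 122 mutated and 88 no-motif oligos. Outside them 10452 oligos had a median change of −0.02, and 95% of these lay between −0.17 and 0.20. Neighbouring tiles overlap by all but 6 bases, so the tiles of a region are not independent observations of it. The regions were set by the calls of unmutated tiles, so their shares of called unmutated tiles follow from that choice, whereas the mutated companions took no part in it.

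The region with the largest changes was in the 3′ UTR of Lrrc47 (tiles 1 to 93, chr4:154019777-154020588). Its lead tile 19, that with the largest change, had 370, 363, 335 and 341 CPM in the knockout libraries and 58.7, 52.3, 44.03 and 46.3 CPM in the wild-type libraries. Every knockout library was above every wild-type library, and the change was 2.81 ± 0.069 (log2 ± SE; 7.01-fold; adjusted p = 8.48e-14). The tile has 22 runs of motif bases, none longer than 6 bases, that add up to 114 bases. Its mutated companion had 54.5 ± 2.40 CPM in knockout and 52.6 ± 3.73 in wild type (SD, n = 4), with a change of 0.06 that was not called. In this region 92 of 93 unmutated tiles rose, with a median of 2.23, and 2 of 93 mutated companions did.

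Fam160b2 had the region with the most called tiles together with Lrrc47, and the abundance of its lead tile was the highest of all lead tiles. Tile 234 (chr14:70583486-70583745) had 473, 472, 555 and 463 CPM in knockout and 117, 105, 78.3 and 80.3 CPM in wild type. The groups were far apart, with a change of 2.37 ± 0.10 (5.16-fold; adjusted p = 1.24e-11). It holds 7 runs, the longest of 28 bases, and 145 motif bases in all. The companion was much less abundant, at 14.5 ± 1.62 CPM in knockout and 13.5 ± 0.976 in wild type, and was not called. Over tiles 184 to 275 all 92 motif tiles rose, with a median of 1.83, and 0 of 92 mutated companions did (median 0.08). Summed over the region, the motif tiles had 35058 ± 2044 CPM in knockout and 11376 ± 1477 in wild type, a ratio of 3.08, and the mutated companions a ratio of 0.985.

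Long uninterrupted GU repeats were found in Cacna1b, which encodes the pore-forming subunit of the N-type calcium channel, and in Spock2, a proteoglycan of the testican family. Cacna1b tile 316 had 274, 276, 275 and 248 CPM in knockout and 71.9, 70.3, 61.0 and 49.3 CPM in wild type. Its change was 2.09 ± 0.081 (4.25-fold; adjusted p = 4.31e-12), and its companion had 6.14 CPM in knockout and 6.76 CPM in wild type (−0.13, not called). All 59 tiles from 278 to 336 (chr2:24604659-24605266) rose and 0 of 59 companions did. Spock2 had a pair of regions: tile 41 in the first (tiles 3 to 53, chr10:60131394-60131953) had 197, 197, 190 and 189 CPM in knockout and 57.0, 59.2, 48.9 and 42.8 in wild type. This was a change of 1.90 ± 0.069 (3.73-fold; adjusted p = 2.27e-12), with 50 of 51 motif tiles and 0 of 51 companions called. In the second Spock2 region (tiles 240 to 288, chr10:60132816-60133363) tile 273 had 156, 160, 181 and 148 CPM in knockout and 59.5, 52.5, 43.7 and 42.5 CPM in wild type. Its change was 1.70 ± 0.087 (3.26-fold; adjusted p = 8.07e-11); all 49 tiles rose, and so did 12 of 49 companions, with a companion median of 0.24.

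Fam219a and Diras1, a small GTPase of the Ras family, showed smaller changes of the same kind. Fam219a tile 176 had 88.0, 93.5, 92.4 and 93.8 CPM in knockout and 33.7, 26.7, 26.9 and 26.2 CPM in wild type. The change was 1.69 ± 0.070 (3.23-fold; adjusted p = 7.65e-12), and all 45 tiles from 142 to 186 (chr4:41518969-41519492) rose against 0 of 45 companions. Diras1 had a region at tiles 241 to 282 (chr10:81019972-81020477), where all 42 tiles rose with a median of 1.06, and one at tiles 173 to 213 (chr10:81020386-81020885), where 40 of 41 rose with a median of 0.55. Their lead tiles changed by 1.56 ± 0.080 (2.95-fold; adjusted p = 8.87e-11) and by 0.72 ± 0.058 (1.65-fold; adjusted p = 4.00e-08), and none of the 42 and 41 companions was called. The companion of tile 272 was scarce, at 2.55 CPM in knockout and 2.39 in wild type, so its change of 0.13 ± 0.27 was loosely measured. That of tile 204 had 55.6 and 61.1 CPM. In Tub, which encodes the tubby protein, 32 of 38 tiles from 415 to 452 (chr7:109032608-109033089) rose, but by 0.47 at most. Over the 8 regions with no called companion, 378 companions were tested, of which 26 were higher and 31 lower at an unadjusted p under 0.05 in edgeR, and DESeq2 called 0 of them higher. The lead inserts of the 12 regions with most called tiles, where their position in the genome was found, lie in the last exon of their gene with 260 of 260 bases in annotated 3′ UTR.

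In 3 UTRs most mutated companions in a region rose too, so the rise there did not rest on the listed motifs alone. Ksr2, a scaffold of the Raf-MEK-ERK pathway, had a region of 90 tiles (1411 to 1500, chr5:117774017-117774810) in which all 62 motif tiles and all 28 no-motif tiles rose, and 60 of 62 mutated companions rose too. Ksr2 tile 1454 had 64.0, 63.0, 71.8 and 63.2 CPM in knockout and 13.5, 14.1, 12.8 and 10.7 CPM in wild type, a change of 2.36 ± 0.081 (5.13-fold; adjusted p = 1.49e-12). It carries only 10 motif bases, in 2 GUAUG matches. Its companion without them had 43.6 ± 4.21 CPM in knockout and 12.4 ± 1.68 in wild type, a change of 1.82 ± 0.097 (3.52-fold). Over the whole region the summed level rose 2.63-fold for motif tiles and 2.46-fold for their companions. The largest rises among all mutated oligos were also in this region, at tiles 1447 (2.11 ± 0.12), 1462 (2.05 ± 0.088) and 1441 (2.03 ± 0.12).

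Kank2, an ankyrin-repeat adaptor protein, and Wasf3, an actin regulator of the WAVE family, behaved likewise. In Kank2, 38 motif and 7 no-motif tiles of the 48 from 238 to 285 (chr9:21767041-21767582) rose, together with 31 of 39 companions. Kank2 tile 264 had 55.8 to 60.1 CPM in knockout and 14.02 to 20.6 CPM in wild type, a change of 1.71 ± 0.090 (3.26-fold; adjusted p = 1.30e-10), and its companion had 93.5 ± 2.98 and 38.8 ± 4.89 CPM (1.28 ± 0.069; 2.42-fold). In Wasf3 most of the region (tiles 391 to 448, chr5:146472618-146473219) has no listed motif at all, and 43 no-motif and 13 motif tiles rose. The lead tile, Wasf3 432, is a no-motif tile with 35.4, 36.2, 37.3 and 31.6 CPM in knockout and 10.3, 10.9, 7.10 and 6.38 CPM in wild type. Its change was 2.03 ± 0.13 (4.09-fold; adjusted p = 1.33e-09). All 13 mutated companions tested in the Wasf3 region rose, with a median of 0.61 beside 0.62 for their motif tiles.

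The motif bases themselves were tested by setting each motif tile against its companion in the same library. The motif-over-mutated ratio was higher in knockout for 573 of 4554 pairs (12.6%) and lower for 3 (0.0659%). In the 573 pairs the median log2 ratio went from 0.47 in wild type to 1.74 in knockout. Of the 675 motif tiles that rose, 559 also rose relative to their companion. All 92 pairs were called in the Fam160b2 region, 92 of 93 in that of Lrrc47, 58 of 59 in that of Cacna1b and all 45 in that of Fam219a. In the 3 regions where most companions rose too, 14 of 62 pairs were called in Ksr2, 25 of 39 in Kank2 and 0 of 13 in Wasf3. At the lead tiles the ratio rose by 2.75 in Lrrc47, 2.26 in Fam160b2 and 2.22 in Cacna1b, and by 0.54 in Ksr2 and 0.43 in Kank2.

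The share of tiles that rose was greater among tiles with longer runs and with more motif bases in all, 2 measures that go together. Of 2306 tiles whose longest run was a single motif of 5 bases, 127 rose (5.51%), and of 1477 with a longest run of 6 to 9 bases, 109 (7.38%). Of 443 tiles with 10 to 19 bases, 144 rose (32.5%), and of 328 tiles with 20 or more, 295 (89.9%). The last group comes from 5 UTRs, and its score differed by 1.35 between knockout (0.676 ± 0.0342, SD, n = 4) and wild type (−0.670 ± 0.156), with an exact permutation p of 0.0286 (adjusted over the 4 bins 0.0571), which is the smallest that the 8 libraries allow. The bin of 10 to 19 bases differed by 0.096 at the same p, and the shorter runs by 0.0064 and −0.010 (both adjusted p = 0.4). Summing the motif bases of a tile gave a like order: 445 of 479 tiles with 40 or more rose (92.9%), 94 of 394 with 20 to 39 (23.9%), 63 of 1217 with 10 to 19 (5.18%) and 73 of 2464 with 5 to 9 (2.96%).

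The share that rose at a given run length differed between UTRs. Of tiles with a longest run of 5 bases, 67 of 601 rose in Ksr2, 38 of 161 in Kank2 and 17 of 140 in Wasf3. These are the UTRs with a region in which most mutated companions rose too. In this bin no other UTR had more than 3 tiles that rose. In Lrrc47, where many short runs lie close together, 92 of the 95 tiles with a longest run of 6 to 9 bases rose (96.8%). Among tiles with 10 to 19 bases, 73 of 100 rose in Diras1, 3 of 83 in Ksr2 and 0 of 42 in Synj2bp, a mitochondrial outer membrane protein. Of the tiles with runs of 20 bases or more, 90 of 90 rose in Fam160b2, 82 of 85 in Spock2, 59 of 64 in Cacna1b, 33 of 43 in Fam219a and 31 of 46 in Kcnj12.

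The edges of 2 regions can be followed tile by tile. In Cacna1b the repeat enters from the 3′ end by 6 bases per tile. Tile 276, with a run of 20 bases, changed by −0.04, tile 277 with 26 bases by 0.14, tile 278 with 32 bases by 0.39, tile 279 with 38 bases by 0.49 and tile 280 with 44 bases by 0.66, and the call began at tile 278. At the other end Cacna1b tiles 325 to 337 all hold a whole run of 31 bases, while their total of motif bases goes from 67 to 37 and the change from 1.19 at tile 325 to 0.42 at tile 336 and 0.16 at tile 337. Tile 337 was thus not called with a run of 31 bases, whereas tile 278 was called with 32. Tile 338, with 25 bases, changed by −0.15.

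In Fam219a the first part of the repeat to enter is a run of 35 bases made of 7 tandem GUAUG, 30 bases of which are shown in capitals.
Fam219a tile 137, minus strand of chr4:41519284-41519313: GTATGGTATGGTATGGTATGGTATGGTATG
Fam219a tile 135, whose 40 motif bases are all GUAUG, changed by −0.07, and tile 139, with 58 motif bases and 10 overlapping matches to UGUGU or GUGUG, by −0.08; neither passed the test. Further along, tile 142 with 73 motif bases changed by 0.59 (64.6 ± 3.60 CPM in knockout, 42.9 ± 3.29 in wild type), tile 144 by 1.31 and tile 147, with 105 motif bases, by 1.61. Among the 4024 tested motif tiles with known sequence, which leave out Kcnj12 and some tiles of other UTRs, 5 held 20 or more motif bases of GUAUG alone. These 5 were in Fam219a, none was called, and their median was −0.06. Of 246 tiles with 20 or more motif bases of UGUGU or GUGUG alone, 149 rose (60.6%), and of 501 with both kinds, 340 (67.9%). With under 20 motif bases the order was another: 65 of 389 tiles with GUAUG alone rose (16.7%), 36 of 2499 with UGUGU or GUGUG alone (1.44%) and 29 of 384 with both (7.55%), and 68 of the 389 lie in regions. Those regions include that of Ksr2, whose lead tile holds GUAUG alone and where 60 of 62 companions without their motifs rose too. The 16.7% therefore does not tell whether GUAUG itself matters. This split by motif letters was chosen after values were seen and is a description.

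Kcnj12, an inward rectifier potassium channel, showed an abrupt step between neighbouring tiles. All tiles from 379 to 413 contain the whole of a run of 53 motif bases. In the 27 tiles up to 405 the changes lay between 0.19 and 0.63 and 14 were called; in the 8 tiles from 406 they lay between 1.84 and 2.29 and all were called. Tile 405 had 86.9, 83.2, 87.3 and 83.3 CPM in knockout and 69.0, 68.0, 59.3 and 53.8 CPM in wild type, a change of 0.45 ± 0.067. Tile 406, which starts 6 bases further on, had 251, 258, 259 and 244 CPM in knockout and 78.2, 67.7, 58.6 and 55.3 CPM in wild type, a change of 1.96 ± 0.075. The wild-type levels of both tiles thus overlapped, the knockout levels were far apart, and the companions changed by 0.07 and 0.05. Among 3935 pairs of neighbouring tiles that hold the same runs whole, the median difference in log2 change was 0.048 and that of Kcnj12 405 and 406 was the largest, at 1.51. The lead tile of this region, Kcnj12 413, had 245 ± 13.1 CPM in knockout and 50.3 ± 8.59 in wild type (2.29 ± 0.082; 4.88-fold; adjusted p = 2.17e-12). No sequence was used for this region.

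A plain count of TG dinucleotides on the transcribed strand, with those inside motifs included, ran alongside the call in all 3 classes. Among inserts with known sequence and 35 or more TG, 503 of 626 motif tiles (80.4%), 87 of 92 mutated oligos (94.6%) and 76 of 89 no-motif tiles (85.4%) rose. In the same order, these inserts came from 10, 4 and 3 UTRs, and 506, 91 and 79 of them lay in the span of a region. With 25 to 29 TG the shares were 2.71%, 0.406% and 0.495%. The median number of TG per insert was 47 in called motif tiles against 23 in those not called, 40.5 against 20 in mutated oligos and 43.5 against 19 in no-motif tiles. The count alone did not order the tiles: Diras1 tile 272 rose by 1.56 with 28 TG and Diras1 tile 204 by 0.72 with 49. Within regions, Pearson's r between TG count and log2 change over overlapping tiles was 0.95 in Lrrc47, 0.94 in Kank2 and 0.92 in the first Spock2 region, but 0.034 in Diras1 (tiles 241 to 282) and −0.46 in Tub; these are descriptions of tiles that share sequence.

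The hexamers TGGATG and TGAATG stood out in the inserts that rose without listed motifs. Of the called no-motif tiles with known sequence, 79 of 92 (85.9%) had 5 or more matches on the transcribed strand, against 5.12% of all no-motif tiles, and of the called mutated oligos 104 of 126 (82.5%) against 3.61%. All 417 oligos with so many matches came from 4 UTRs (Fam160b2, Kank2, Ksr2 and Wasf3), and 320 of them rose (76.7%). At least 1 match was present in 19.5% of oligos, of which 20.1% rose with a median of 0.0038 (log2), and at least 1 match to the reverse complement in 13.4%, of which 1.49% rose. The hexamers were chosen after the called tiles were read, and their matches can overlap one another and a TG.

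A small region of Cacna1b (tiles 447 to 462, chr2:24603903-24604252) had neither. Here 13 of 16 tiles rose, 10 of them without a motif, and the lead tile 455 changed by 0.57. The window below has its GA repeats in capitals.
Cacna1b tile 455, minus strand of chr2:24604072-24604101: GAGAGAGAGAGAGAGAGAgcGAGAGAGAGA
The insert of tile 455 holds 19 TG and no TGGATG or TGAATG, and all 16 tiles have GA repeated at least 5 times. Such a repeat was also present in 33 tiles of the Diras1 region from 241, in 43 of the Spock2 region from 240 and in 59 of the Fam160b2 region, beside their GU repeats. Over all inserts with known sequence, 168 of 384 oligos with such a repeat rose (43.8%). By class these were 142 of 185 motif tiles, 16 of 181 mutated oligos (8.84%) and 10 of 18 no-motif tiles.

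Summed over a whole UTR, the motif tiles of 9 UTRs and the mutated oligos of Ksr2 rose, which is 10 of 48 sums (20.8%; edgeR on summed UMIs, adjusted over the 48), and none fell. At an unadjusted p under 0.05, 13 sums were higher and 5 lower. The motif sum of Lrrc47 was 37553 to 39454 CPM in knockout and 13471 to 15721 in wild type (2.65-fold), and that of Fam160b2 42300 to 46333 and 18662 to 21988 (2.17-fold). In both UTRs the groups lay far apart. The others rose by less, namely Spock2 1.24-fold, Cacna1b 1.23-fold, Diras1 1.16-fold, Kcnj12 1.13-fold, Fam219a 1.09-fold, Kank2 1.05-fold and Ksr2 1.04-fold. No oligo rose in Lars2, a mitochondrial leucyl-tRNA synthetase, in Sos2, a Ras exchange factor, in Ssc5d or in Synj2bp, although Synj2bp has 397 motif tiles. At an unadjusted p under 0.05 in edgeR, 56 of 351 Sos2 oligos were higher and 4 lower, 70 of 1172 in Synj2bp were higher and 31 lower, 2 of 240 in Lars2 were higher and 30 lower, and 1 of 115 in Ssc5d was higher and 13 lower. DESeq2 called 0 higher in these 4 UTRs. In Soga3, which has 6 motif tiles, 3 of 80 no-motif tiles rose, and the no-motif median was 0.12.

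The 11 falls were small and lay in no region. The largest was in Fam219a tile 350, a no-motif tile with 27.6 to 31.9 CPM in knockout and 34.5 to 38.6 CPM in wild type. The largest falls among mutated oligos were those of Ksr2 tile 664 (70.6 ± 2.87 CPM in knockout, 81.8 ± 0.542 in wild type; −0.21), Ksr2 tile 1072 (−0.20) and Cacna1b tile 200 (387 ± 10.2 and 431 ± 6.24 CPM; −0.16). Knockout was below wild type in every library for 523 oligos (4.39%) and above it in every library for 1209 (10.1%).

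Wild-type libraries were less alike than knockout libraries in the tiles that rose. Over the 750 called unmutated tiles in regions, the median deviation from the wild-type mean (log2) was 0.146, 0.044, −0.061 and −0.105 in wild-type replicates 1 to 4, a range of 0.251, against a range of 0.072 among the knockout libraries. Over 6588 unmutated tiles outside the regions both ranges were under 0.01. The effect of this spread on the changes was not tested beyond leaving out each library in turn.

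The same oligos were measured in the neurite fraction, where changes were larger. In a fit of all 16 MPRA libraries the soma change was below the neurite change for 614 of 11918 oligos (5.15%) and above it for 33 (0.277%), and 604 of the 899 oligos that rose in soma were among the 614. The fit had no term that pairs soma and neurite libraries of the same cells. Over the 899 the median change was 1.24 in soma and 2.42 in neurites. For 2 lead tiles, Fam219a 176 (1.70 in soma, 1.95 in neurites, adjusted p = 0.320) and Diras1 204 (0.72 and 0.84, adjusted p = 0.814), no difference was called. Of the 33 oligos, 20 were in Tub and 11 were mutated Diras1 oligos.

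The soma calls can be set beside binding and decay measured on the same oligos, as a description with no test. Per the study's methods, decay was measured in lysates of whole cells that were not split into soma and neurites. In RNA Bind-n-Seq, in which oligo RNA is pulled down with purified TDP-43, the median log2 enrichment at 500 nM over input was 2.43 for the 433 called motif tiles with enough input reads and −0.45 for motif tiles not called. It was 2.18 against −0.69 for mutated oligos and 1.99 against −1.14 for no-motif tiles. The called values rest on 68 of 129 mutated and 44 of 95 no-motif oligos, the latter with a lower quartile of −2.19. Binding and call did not always go together. In regions with no called companion, measured companions had a median of 2.11 in Fam160b2 (10 of 92) and 2.61 in Kcnj12 from 392 (10 of 36). In Diras1 from 173 it was −0.06 (41 of 41). The Cacna1b region with GA repeats stood at −2.14. In SLAM-seq, in which 4-thiouridine put into RNA during a pulse is read as T-to-C changes and is lost from a reporter as its RNA turns over, the log2 ratio of label at 12 h over 0 h in knockout minus that in wild type had a median of −0.44 for called motif tiles and −0.60 for those not called, −0.26 against −0.59 for mutated oligos and −0.14 against −0.59 for no-motif tiles. By region the order varied. Unmutated tiles stood above their companions in Lrrc47 (−0.18, −0.50) and Diras1 from 241 (0.04, −0.41). They stood below them in Fam160b2 (−0.77, −0.45) and Cacna1b from 278 (−0.63, −0.42), and close in Fam219a (−0.42, −0.44). Of the knockout libraries at 12 h, replicate 1 had 1.37% of T positions read as C, the others 0.465 and 0.511, and wild type 1.17, 1.17 and 1.33. The medians hold this library-wide difference, whose cause was not tested. Without knockout replicate 1 the medians for motif tiles were −1.14 and −1.36. In Fam219a they were then −1.13 for unmutated tiles and −0.91 for companions, so these were no longer close. The other regions named here kept their order.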

How the data were processed

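Per the study's methods, the authors primed cDNA on GFP with 8-base UMIs, aligned reads to the oligos with bowtie2 and deposited read and unique UMI counts per oligo and library; the submitters' processing notes name cutadapt and Salmon, and their versions are not given in the sources used here. The TPM values are the authors' Salmon output. Tiles that share a repeat differ by few bases, so their counts rest on the authors' alignment. UMI counts were tested with edgeR 4.0.16 (quasi-likelihood, TMM, filterByExpr; adjusted p at most 0.01) in R 4.3.3, with genotype as the only term, and motif against mutated pairs with a term per library. Scores used log2(CPM + 0.5) and exact permutation tests over libraries. DESeq2 1.42.0 and limma 3.58.1 served as alternatives. The edgeR fits per oligo, of pairs and of soma against neurite were tried on simulated counts, and the other fits and tests were not. Named oligos were the lead tiles of the 12 regions with most called tiles, their companions, and the 3 largest rises and falls among mutated oligos; others were named after values were seen. Of 7389 unmutated tiles, 6449 were placed on GENCODE vM21 transcripts (mm10) by their motif positions and 69 more sequences came from the study's oligo file. No sequence was used for the rest. The sequence of the Fam219a lead tile is not reported here. RNA Bind-n-Seq needed 20 reads in the single input library, and SLAM-seq 1000 T positions. No plasmid DNA library was used here. Replicate numbers were shared between groups, but same-numbered libraries deviated together at r = 0.148, 0.0866, 0.0937 and 0.145, not all over 0.1, so they were not taken as pairs. Oligos, regions and lists were chosen with earlier results of these data known.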

Additional observations from a re-analysis of the deposited data

Results flagged for a closer look

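The change in soma was smaller than that in neurites, by a test of the difference itself, for 10 of the 12 lead tiles. The soma minus neurite difference in log2 change was −0.64 for Cacna1b tile 316 (2.09 in soma, 2.73 in neurites), −0.53 for Spock2 tile 41 (1.90, 2.43) and −0.98 for Kcnj12 tile 413 (2.29, 3.27). It was larger for Lrrc47 tile 19 at −2.09 (2.81, 4.90), Spock2 tile 273 at −2.98 (1.71, 4.69), Kank2 tile 264 at −3.13 (1.71, 4.84), Wasf3 tile 432 at −3.40 (2.04, 5.43), Fam160b2 tile 234 at −3.55 (2.37, 5.92), Diras1 tile 272 at −3.65 (1.56, 5.21) and Ksr2 tile 1454 at −4.19 (2.36, 6.55). The order of the tiles by soma change was thus not their order by neurite change.

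A single library lay far from the other 3 of its group in 7 of 98 groups tested, where chance flags about 1 in 20. In knockout soma the highest value stood off for Fam160b2 tile 234 (555 CPM), Ksr2 tile 1454 (71.8 CPM) and the Fam160b2 motif sum (46333 CPM), and the lowest for Cacna1b tile 316 (248 CPM) and mutated Diras1 tile 204 (47.6 CPM). In wild-type soma the highest value stood off for Fam219a tile 176 (33.7 CPM) and mutated Ksr2 tile 664 (82.6 CPM). Of the 5 knockout values, 4 come from knockout replicate 3, the library that stood apart; the other, of Cacna1b tile 316, comes from replicate 4.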

How the results depend on the processing

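The count of rises stayed within 1.5 times of that reported and the count of falls did not. Over all settings 843 to 1026 oligos were called higher; leaving out 1 library gave 854 to 924 (motif 646 to 681, mutated 121 to 148, no-motif 87 to 105), 14 to 16 regions and 551 to 573 pairs. The 11 falls became 18 with DESeq2, 288 with upper-quartile scaling, 91 at an adjusted p of 0.05, 7 with read counts and 1 to 15 without 1 library (1 without wild-type replicate 3, 2 without wild-type or knockout replicate 4, 4 without wild-type replicate 2). Regions called lower, 0 as reported, numbered 8 with upper-quartile scaling and 1 at 0.05. Pairs called lower, 3 as reported, were 14 at 0.05 and 0 to 3 without 1 library. With the replicate number as a block (replicate block) 931 oligos were higher and 15 lower in 16 regions, 1 no-motif sum rose in place of 0, and limma on the log2 ratios of pairs called 0 lower; not every library correlated best with its own number. By an exact permutation test of the median over oligos, 0 motif and 0 mutated sums were called, because the smallest p of 0.0286 cannot pass 0.01. The score of the bin of 6 to 9 bases turned from 0.0064 to −0.0051 when total motif bases (10 to 19) set the bin, neither past the test. The score of runs of 20 or more stayed between 1.30 and 1.41 without 1 library. Falls of mutated Ksr2 tiles 664 and 1072 and Cacna1b tile 200 lost their call in 21 combinations of oligo and setting, with adjusted p up to 0.0485. Correcting UMIs for chance sharing, chosen after seeing the data, gave 609 oligos with the smaller change in soma and 32 with the larger. The cause of these shifts was not tested.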
